A study of Rattus norvegicus with 20 samples.

Results

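In male germ cells of the rat, 7 microRNAs (miRNAs) best known from brain were followed: rno-miR-124-3p, rno-miR-218a-5p, rno-miR-129-1-3p, rno-miR-129-2-3p, rno-miR-138-5p, rno-miR-338-3p and rno-miR-204-5p. They are 7 of the 677 rat miRNAs on the array and 7 of the 217 that were tested. They were chosen by their direction between the cell types in these same arrays: 2 rise (miR-124-3p and miR-218a-5p) and 5 fall from pachytene spermatocytes, cells in the long prophase of meiosis, to round spermatids, the haploid cells that follow meiosis. The cell type differences below are therefore a description with no test. The tests concern cyclophosphamide, which the choice did not use.

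The 20 arrays fall into 4 groups of 5: pachytene spermatocytes of saline rats, pachytene spermatocytes of cyclophosphamide rats, round spermatids of saline rats and round spermatids of cyclophosphamide rats. All came from Sprague-Dawley males that were dosed by gavage on 6 days a week over 4 weeks, with 6 mg/kg of cyclophosphamide, an alkylating drug used against cancer, or with saline. The ages of the rats and the purity of the cell fractions, which were made by sedimentation at unit gravity (STA-PUT), are not given in the sources used here. Each array carries a rat number, and 2 cyclophosphamide pachytene arrays numbered 16 differ in the year that their labels give (here the earlier rat 16 and the later rat 16).

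A miRNA is a short RNA that pairs with messenger RNAs mainly through its seed and represses them. In the brain, miR-124 is known as the abundant miRNA of neurons that holds down genes of other cell types, miR-138 as a dendritic miRNA that limits the growth of dendritic spines, miR-218 as a miRNA of motor neurons, miR-338 as a miRNA of oligodendrocytes that lies in an intron of a neuronal kinase gene, miR-204 as a miRNA of the eye, choroid plexus and their epithelia, and the miR-129 hairpins as sources of miRNAs of neuronal excitability. Male germ cells share part of their transcribed genes with the brain.

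The mature sequences of 6 of the 7 miRNAs are printed from RefSeq (rat build GRCr8) to show which of them share a seed and which could be confused by a probe. The capitals mark the seed, bases 2 to 8 from the 5′ end.
miR-218a-5p: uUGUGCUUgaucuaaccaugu
miR-129-1-3p: aAGCCCUUaccccaaaaag
miR-129-2-3p: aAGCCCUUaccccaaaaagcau
miR-138-5p: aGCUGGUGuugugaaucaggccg
miR-338-3p: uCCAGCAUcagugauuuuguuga
miR-204-5p: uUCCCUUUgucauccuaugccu
miR-211-5p: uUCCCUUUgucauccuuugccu
The sequence of miR-124-3p is not printed. The miR-129-1-3p entry of 19 bases is identical to the first 19 bases of miR-129-2-3p, which has 22, so the array names of this pair differ only in 3 bases at the 3′ end and their signals are uncertain as separate readings. The last line is no member and is shown because miR-211-5p has the seed of miR-204-5p and is identical to it in 21 of 22 bases, with the substitution A17U counted from the 5′ end of miR-204-5p. The other 3 seeds are shared with no member.

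In GRCr8 the RefSeq copies lie on 7 chromosomes. The miR-204-5p sequence lies at chr1:229743493-229743514 on the plus strand within the span of Trpm3, a cation channel gene. The miR-129-2-3p sequence lies at chr3:100657405-100657426 on the minus strand outside any annotated host gene, and the miR-129-1-3p sequence at chr4:58589759-58589777 on the plus strand within a long noncoding RNA gene. The gene table used here overlaps the 2 miR-218 copies with the Slit genes, which encode axon guidance ligands. The miR-218a-5p sequence lies at chr10:20572547-20572567 on the plus strand within the span of Slit3 and at chr14:66922413-66922433 on the minus strand within the span of Slit2. The miR-138-5p sequence also has 2 copies, at chr8:131178456-131178478 on the plus strand, where it overlaps long noncoding RNA genes, and at chr19:10680184-10680206 on the minus strand within the span of Slc12a3, a kidney salt cotransporter gene. The miR-338-3p sequence lies at chr10:105796345-105796367 on the minus strand within the span of Aatk, a kinase gene expressed in neurons. The array gives 1 signal for a mature sequence, so the copies of miR-218a-5p and of miR-138-5p cannot be told apart.

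Values are log2 signals scaled between arrays and held at a floor of 3.61, and a probe's level is not compared with that of another miRNA. Well above background is the scanner software's call for a spot, and a probe is called measured on an array where most of its spots had that call. Between 181 and 281 miRNAs were detected per array, and replicate arrays correlated at r between 0.958 and 0.996. The labelled cell types carried the miR-34 and miR-449 germ cell miRNAs, 5 of 6 of which were tested, with summed linear signals of 15564 to 24230 in pachytene arrays and 15718 to 35546 in spermatid arrays. Markers of other cells moved between the cell types as well. The summed signal of 9 miRNAs of muscle, endothelium and mesenchyme (7 tested) was 715 to 1509 in saline and 565 to 1028 in cyclophosphamide pachytene arrays, against 2398 to 3656 and 1984 to 3822 in spermatid arrays. This sum mostly follows miR-143-3p, with mean log2 signals of 9.50 and 9.20 in pachytene against 11.31 and 11.20 in spermatid arrays, saline first. In the same list miR-126a-3p went from 6.86 to 6.14 and from 6.63 to 5.80. The summed signal of 6 blood miRNAs (3 tested) was 91 to 119 and 70 to 116 against 160 to 222 and 152 to 213, and miR-144-3p of red cells was detected on no array. The 2 arms of the Sertoli cell hairpin miR-202 summed to 90 to 111 and 87 to 119 in pachytene against 19 to 44 and 27 to 40 in spermatid arrays. The part of these other cells in the values below was not tested, and in such bulk fractions a change in the makeup of cells and a change in the RNA per cell cannot be told apart.

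The signal of miR-124-3p was close to the floor in pachytene spermatocytes and clearly above it in round spermatids. In saline pachytene spermatocytes the log2 signals were 4.03, 3.95, 3.62, 3.61 and 3.66 in rats 13, 16, 25, 26 and 28, and in cyclophosphamide pachytene spermatocytes 3.69, 3.98, 3.63, 3.86 and 3.78 in rats 7, 15, 16 (earlier), 16 (later) and 29. In saline round spermatids they were 5.35, 4.57, 5.59, 5.02 and 5.51 in rats 15, 16, 17, 25 and 28, and in cyclophosphamide round spermatids 5.19, 5.60, 5.01, 5.22 and 5.44 in rats 14, 15, 16, 25 and 26. Every spermatid array lay above every pachytene array, the lowest being rat 16 of the saline spermatids, while the treatments overlapped in both cell types. The means were 3.77 ± 0.20 (SD, n = 5) and 3.79 ± 0.14 in pachytene against 5.21 ± 0.42 and 5.29 ± 0.23 in spermatid arrays, saline first. The difference between the cell types was 1.43 on the log2 scale (2.70-fold) in saline and 1.50 (2.83-fold) in cyclophosphamide rats. The probe was measured on 3 of 5 saline and 4 of 5 cyclophosphamide pachytene arrays and on all spermatid arrays, so the lower means rest partly on dim spots.

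The signal of miR-218a-5p was at the floor in pachytene spermatocytes on 8 of 10 arrays, and the exceptions were 3.65 in rat 13 of the saline and 3.63 in rat 7 of the cyclophosphamide rats. In round spermatids the log2 signals were 4.60, 4.41, 5.09, 4.93 and 4.65 in saline rats 15, 16, 17, 25 and 28 and 4.49, 4.46, 5.07, 4.69 and 4.56 in cyclophosphamide rats 14, 15, 16, 25 and 26. All spermatid arrays lay above all pachytene arrays, with no separation by treatment. The spermatid means were 4.74 ± 0.27 (SD, n = 5) and 4.65 ± 0.25, which is 1.12 (2.18-fold) and 1.04 (2.06-fold) above the pachytene means on the log2 scale. These values depend on the floor. The probe was measured on 2 of 5 saline pachytene arrays and on 0 of 5 cyclophosphamide pachytene arrays, where a bound applies: the signal was at least 2.05-fold higher in cyclophosphamide spermatids, whose mean was 4.65, than a limit of 3.62, the mean over arrays of the lowest signal well above background or the probe's own signal at the floor, whichever was higher. With a lower floor the difference was 1.80 in saline and 1.83 in cyclophosphamide rats.

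The miR-129 pair stood higher in pachytene spermatocytes. For miR-129-2-3p, the 3′ arm of the second hairpin, the log2 signals were 5.67, 5.39, 5.66, 5.74 and 5.38 in saline pachytene rats 13, 16, 25, 26 and 28, and 5.49, 5.33, 5.40, 5.55 and 5.68 in the cyclophosphamide rats in the order given above. In round spermatids they were 3.72, 4.32, 4.48, 4.11 and 3.85 in saline rats 15, 16, 17, 25 and 28 and 3.85, 3.88, 3.95, 3.96 and 4.58 in cyclophosphamide rats 14, 15, 16, 25 and 26. No spermatid array reached the lowest pachytene array, and rat 26 was the highest of the cyclophosphamide spermatids. The difference was -1.48 (2.78-fold lower in spermatids) in saline and -1.44 (2.72-fold) in cyclophosphamide rats, from means of 5.57 ± 0.17 (SD, n = 5) to 4.09 ± 0.31 and from 5.49 ± 0.14 to 4.04 ± 0.30. The probe was measured on all pachytene arrays and on 3 of 5 spermatid arrays in each treatment. For miR-129-1-3p the pachytene signals lay between 5.60 and 5.92 in saline and between 5.35 and 5.85 in cyclophosphamide rats, and the spermatid signals between 3.96 and 5.05 and between 4.04 and 5.05. Its difference was -1.13 (2.19-fold lower) and -1.28 (2.43-fold lower), from 5.72 ± 0.12 (SD, n = 5) to 4.59 ± 0.41 and from 5.66 ± 0.21 to 4.38 ± 0.40. Its groups did not overlap between cell types either, and rat 26 of the cyclophosphamide spermatids and rat 17 of the saline spermatids, both at 5.05, came nearest to the pachytene arrays.

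The signal of miR-138-5p reached from well above the floor down to it. In pachytene spermatocytes the log2 signals were 5.39, 4.96, 5.31, 5.54 and 5.12 in saline rats 13, 16, 25, 26 and 28 and 4.85, 5.10, 5.45, 5.49 and 5.62 in cyclophosphamide rats 7, 15, 16 (earlier), 16 (later) and 29. In round spermatids all 10 arrays lay between 3.61 and 3.67. The pachytene mean was 5.26 ± 0.23 (SD, n = 5) with saline and 5.30 ± 0.32 with cyclophosphamide, and the fitted differences of -1.64 (3.12-fold lower in spermatids) and -1.69 (3.22-fold lower) are limited by the floor. In spermatids the probe was measured on 1 of 5 saline and 0 of 5 cyclophosphamide arrays. In the cyclophosphamide rats the signal was thus at least 2.55-fold higher in pachytene spermatocytes, with a mean of 5.30, than the limit of 3.95 in spermatids. The spermatid mean of the signals held at the floor was 3.62. A lower floor gave -2.20 in both treatments.

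For miR-338-3p the pachytene log2 signals were 5.61, 4.74, 5.60, 5.70 and 5.85 in saline rats 13, 16, 25, 26 and 28 and 5.25, 4.99, 4.99, 5.99 and 5.39 in the cyclophosphamide rats in the same order as before. The spermatid signals were 3.92, 3.89, 4.72, 3.67 and 3.75 in saline rats 15, 16, 17, 25 and 28 and 3.84, 3.76, 4.22, 3.85 and 4.46 in cyclophosphamide rats 14, 15, 16, 25 and 26. The saline groups all but met, at 4.74 in pachytene rat 16 and 4.72 in spermatid rat 17, and the cyclophosphamide groups were further apart. The means went from 5.50 ± 0.44 (SD, n = 5) to 3.99 ± 0.42 and from 5.32 ± 0.41 to 4.02 ± 0.30, which is -1.51 (2.85-fold lower) in saline and -1.30 (2.46-fold lower) in cyclophosphamide rats. In spermatids the probe was measured on 4 of 5 saline and 3 of 5 cyclophosphamide arrays.

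The signal of miR-204-5p stayed far above the floor on all 20 arrays, so its difference does not depend on the floor. The log2 signals were 7.85, 7.60, 7.56, 7.75 and 7.62 in saline and 7.55, 7.51, 7.76, 7.97 and 7.76 in cyclophosphamide pachytene arrays. They were 6.77, 6.82, 7.08, 6.56 and 6.43 in saline and 6.40, 6.55, 6.78, 6.28 and 6.95 in cyclophosphamide spermatid arrays, each in the order of rats given for miR-124-3p. The lowest pachytene array stood above the highest spermatid array in both treatments. The difference was -0.95 (1.93-fold lower in spermatids) in saline and -1.12 (2.17-fold lower) in cyclophosphamide rats, from 7.68 ± 0.12 (SD, n = 5) to 6.73 ± 0.25 and from 7.71 ± 0.18 to 6.59 ± 0.27.

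**Figure D1:**
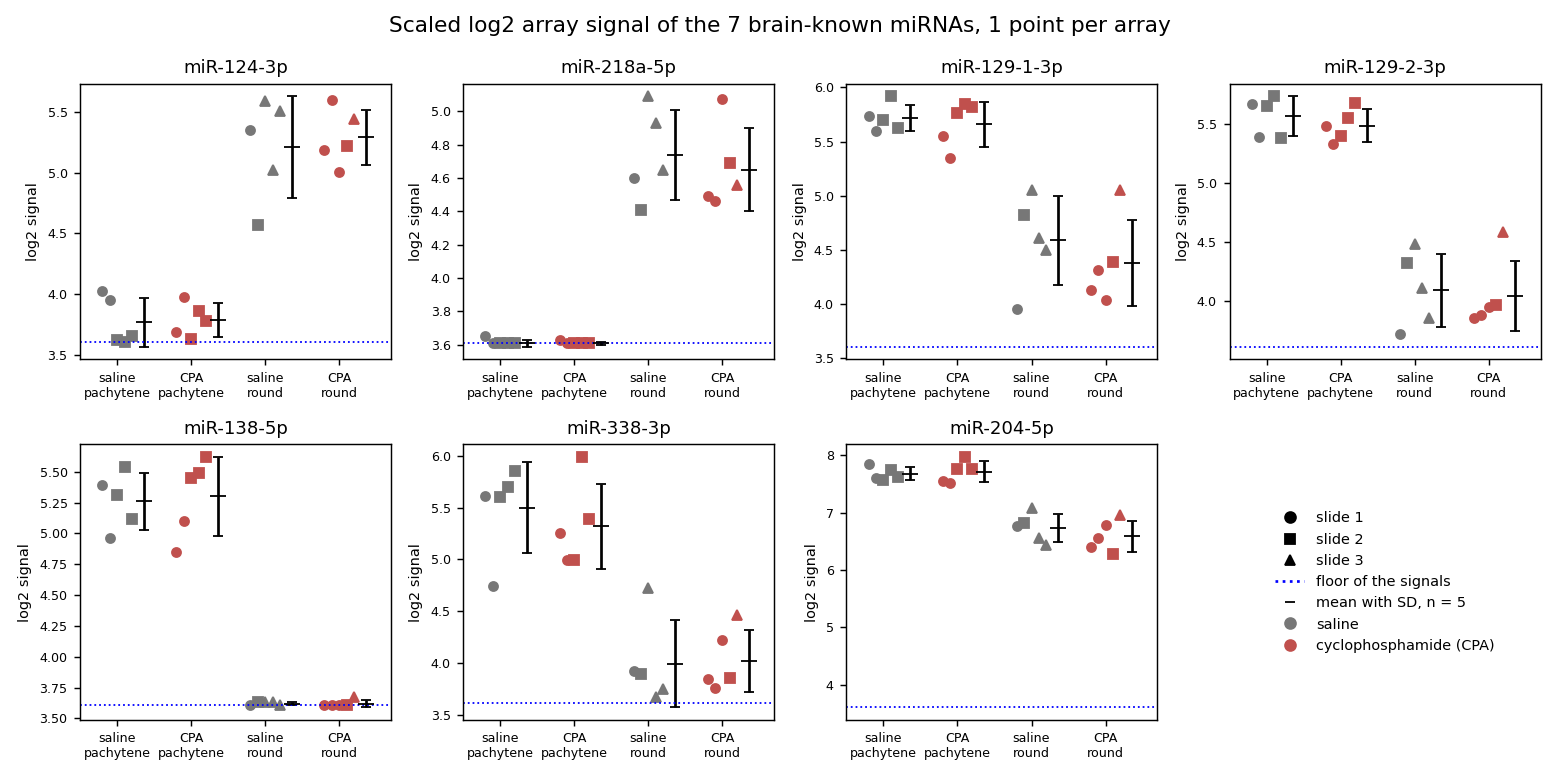
Scaled log2 signal (y axis, a separate range in each panel) of the 7 miRNAs on each of the 20 arrays, by group along the x axis, with the marker shape giving the slide, the horizontal bar the mean, the error bar the SD (n = 5) and the dotted line the floor of 3.61. Cell types are separated in every panel while saline and cyclophosphamide points overlap within a cell type, and miR-218a-5p and miR-138-5p reach the floor in 1 cell type.

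Among the 217 tested miRNAs the 7 stood towards both ends of the cell type difference, which ran from -1.96 to 2.97 with a median of 0.02 in saline rats and from -2.08 to 3.41 with a median of 0.06 in cyclophosphamide rats. In saline rats miR-124-3p was the 13th and miR-218a-5p the 19th from the highest. From the lowest, miR-138-5p was the 6th, miR-338-3p the 9th, miR-129-2-3p the 10th, miR-129-1-3p the 13th and miR-204-5p the 17th. All 7 had groups that did not overlap in either treatment, which the choice of the 7 favours. For comparison, 18.4% of the tested miRNAs were higher in spermatids without overlap in saline rats and 16.1% lower, and 23.5% and 18.9% in cyclophosphamide rats. By limma with Benjamini-Hochberg adjusted p-values under 0.05, 26.3% were called higher and 22.1% lower in saline rats and 30.9% and 23.0% in cyclophosphamide rats, and nothing is read from these shares about the 7. The split of all calls depends on the scaling: 57 higher and 48 lower in saline rats became 21 and 68 with no scaling between arrays, 36 and 78 with scaling over all rat miRNA spots, 37 and 61 with scaling to control spots, 40 and 65 with quantile normalization and 46 and 59 with the total gene signal. In cyclophosphamide rats 67 and 50 became 22 and 50 with no scaling, 39 and 72 over all rat spots and 50 and 62 with quantile normalization. Higher calls stayed ahead there with the total gene signal, at 56 and 53, and with the normexp background correction, at 20 and 18, and in saline rats with normexp, at 17 and 12. For the 7 themselves, normexp gave values near 0 in saline rats for 4 of the falling 5, 0.01 for miR-129-1-3p and miR-338-3p, -0.0021 for miR-129-2-3p and -0.0043 for miR-138-5p, and it gave 0.31 for miR-124-3p and 0.26 for miR-218a-5p in cyclophosphamide rats.

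**Figure D2:**
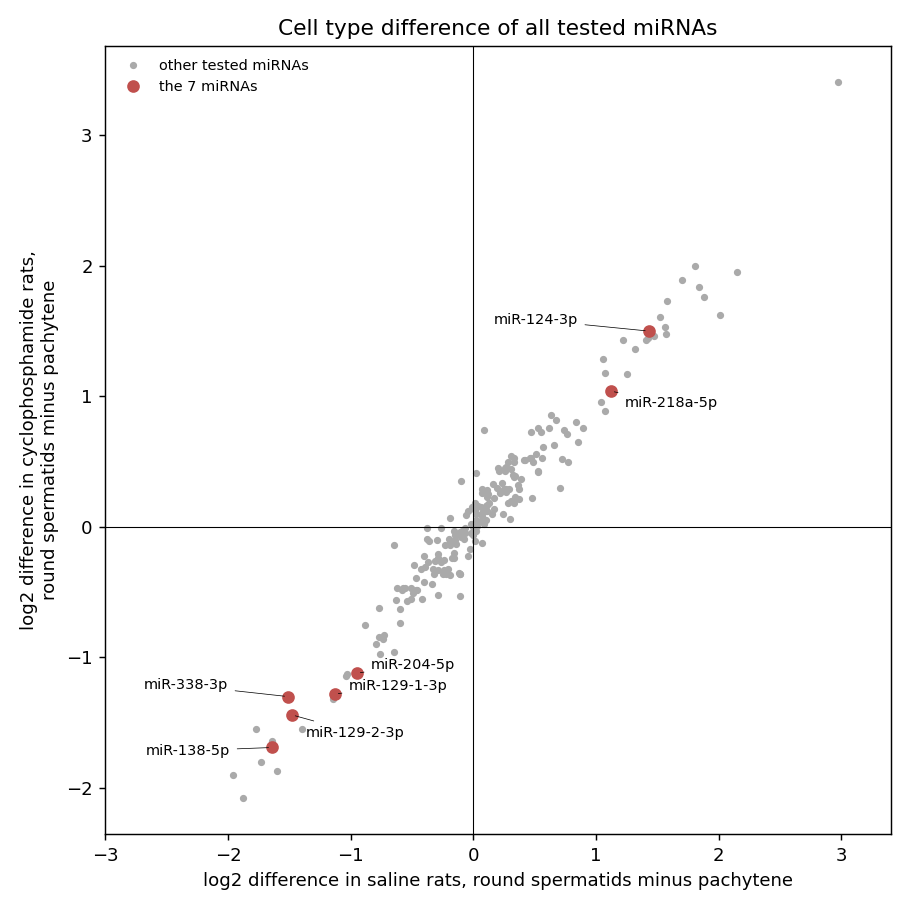
Each point is 1 of the 217 tested miRNAs, with its log2 difference between round spermatids and pachytene spermatocytes in saline rats on the x axis and in cyclophosphamide rats on the y axis. The 7 miRNAs are the large points, with miR-124-3p at 1.43 and 1.50 and miR-218a-5p at 1.12 and 1.04 at the upper right and the other 5 between -1.69 and -0.95 at the lower left.

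Each of the 7 has 2 probes on the array, and the brighter one gave the values above. The other probe showed the cell type difference for 4 of the 7. It gave 0.80 in saline and 0.73 in cyclophosphamide rats for miR-218a-5p, -1.37 and -1.32 for miR-338-3p, and -1.20 and -1.33 for miR-204-5p. For miR-138-5p its mean went from 4.61 in pachytene to 3.61 in spermatid arrays of saline rats and from 4.66 to 3.61 in cyclophosphamide rats. For miR-124-3p, miR-129-1-3p and miR-129-2-3p the other probe was at the floor on 14, 18 and 15 of the 20 arrays, and its differences lay between -0.01 and 0.04. The differences of these 3 miRNAs therefore rest on 1 probe each.

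**Figure D3:**
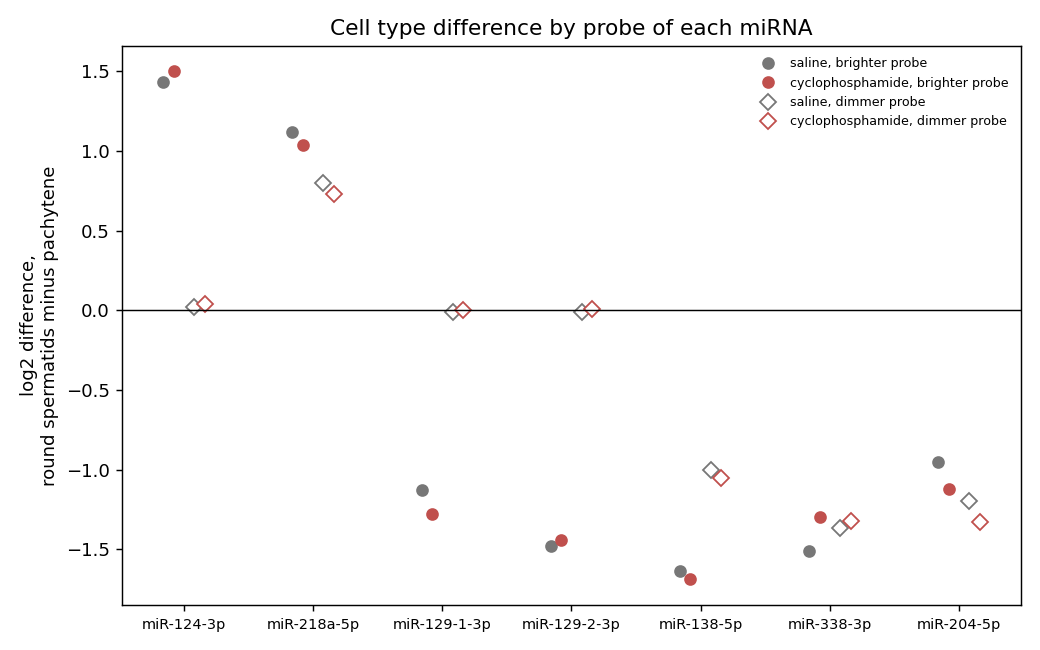
Log2 difference between round spermatids and pachytene spermatocytes (y axis) by miRNA (x axis) for the brighter probe (filled circles) and the dimmer probe (open diamonds), in saline (grey) and cyclophosphamide rats (red). The dimmer probes of miR-124-3p, miR-129-1-3p and miR-129-2-3p lie near 0, where they were at the floor on most arrays.

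The arrays were on 3 slides, and slide 3 held only spermatid arrays, 3 saline and 1 cyclophosphamide. Within slide 1 the cell type difference in saline rats was 1.36 for miR-124-3p and 0.97 for miR-218a-5p, and it ran from -1.81 (miR-129-2-3p) to -0.96 (miR-204-5p) for the other 5. Within slide 2 it was 0.94 and 0.80, and from -1.83 (miR-338-3p) to -0.82 (miR-204-5p). In cyclophosphamide rats it was 1.43 and 1.05, and from -1.51 (miR-129-2-3p) to -0.96 (miR-204-5p) within slide 1, and 1.46 and 1.09, and from -1.92 (miR-138-5p) to -1.42 (miR-129-1-3p) within slide 2. All 7 kept their direction within both slides in both treatments, although 3 of these 4 comparisons rest on 1 spermatid array. Among the spermatid arrays, slide 3 differed from the other slides in 8.29% of the tested miRNAs by limma and in none of the 7, where the largest difference was 0.53 ± 0.21 (SE) for miR-129-1-3p with an adjusted p of 0.193.

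Cyclophosphamide moved none of the 7 miRNAs past the threshold in pachytene spermatocytes. The differences from saline ran from -0.18 ± 0.24 (SE, n = 5 and 5) for miR-338-3p to 0.04 ± 0.12 for miR-138-5p, with an adjusted p of 1 for each (limma, over 217 miRNAs). They were 0.01 ± 0.16 for miR-124-3p, -0.06 ± 0.19 for miR-129-1-3p, -0.08 ± 0.15 for miR-129-2-3p and 0.03 ± 0.13 for miR-204-5p, and -0.0035 for miR-218a-5p, whose arrays lay at the floor in both treatments. The 95% intervals of the 7 lay between -0.67 and 0.35, so a fall of up to 1.59-fold or a rise of up to 1.28-fold lies inside an interval of at least 1 of them. These SEs and intervals share 1 spread over all 4 groups, including groups at the floor. The intervals, here and in the drug comparisons below, hold for the main processing, and some alternatives gave values beyond them. With only the 2 pachytene groups in the fit, the SE was larger for miR-138-5p (0.17) and miR-338-3p (0.26). It was smaller for the other members. The share of tested miRNAs called was 0%, with 1 of 217 at an unadjusted p under 0.05, which was none of the 7.

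In round spermatids the drug calls were likewise 0 of 7 against a share of 0% of the tested miRNAs, with 5 of 217 and none of the 7 at an unadjusted p under 0.05 in limma. The differences ran from -0.20 ± 0.19 (SE, n = 5 and 5) for miR-129-1-3p, with an adjusted p of 0.85, to 0.08 ± 0.16 for miR-124-3p, with an adjusted p of 0.931. They were -0.08 ± 0.12 for miR-218a-5p, -0.05 ± 0.15 for miR-129-2-3p, 0.03 ± 0.24 for miR-338-3p and -0.14 ± 0.13 for miR-204-5p, and miR-138-5p lay at or near the floor in both treatments. The intervals lay between -0.59 and 0.53. They share the spread of all 4 groups, which can make some of them too narrow here. The spermatid SDs of miR-218a-5p were 0.27 and 0.25, against 0.02 and 0.01 in pachytene arrays, saline first. For miR-129-1-3p they were 0.41 and 0.40 against 0.12 and 0.21. The SDs of miR-138-5p and miR-338-3p went the other way. The median of the 7 was -0.05, and that of all tested miRNAs was 0.04.

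Because most saline spermatid arrays were on slide 3, the drug differences in spermatids were also taken within slides. For miR-124-3p the difference was -0.08 within slide 1, 0.65 within slide 2 and 0.06 within slide 3, with adjusted p-values in limma of 1, 0.0281 and 0.982. For miR-218a-5p it was 0.07, 0.28 and -0.33, with adjusted p-values of 1, 0.00187 and 0.644. Slide 2 holds 1 saline and 1 cyclophosphamide spermatid array, and the spread of its fit comes from the 6 pachytene arrays, which lie at the floor for miR-218a-5p. The directions differ between slides for both miRNAs. With the slide as a block, the differences were 0.17 ± 0.15 (SE) and -0.02 ± 0.13, with adjusted p-values of 0.878 and 0.995 by limma, and no other of the 7 passed the threshold within a slide.

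The drug effects did not differ detectably between the cell types for any of the 7, and the share of tested miRNAs called was again 0%, with 1 of 217 and none of the 7 at an unadjusted p under 0.05. The differences of effects, spermatids minus pachytene, ran from -0.17 for miR-204-5p to 0.21 ± 0.33 (SE) for miR-338-3p, with adjusted p-values in limma of 0.998. The intervals lay between -0.70 and 0.91, so a difference of effects of up to 1.88-fold lies inside an interval of at least 1 of them. They too share the spread of all 4 groups. For miR-218a-5p (-0.08) and miR-138-5p (-0.04) the floor held 1 of the 2 drug effects near 0. Their differences of effects thus carry only the effect in the other cell type and do not compare the cell types. Within slide 2 the difference for miR-218a-5p was 0.28 with an adjusted p of 0.00363 by limma, from the same 2 spermatid arrays as above.

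**Figure D4:**
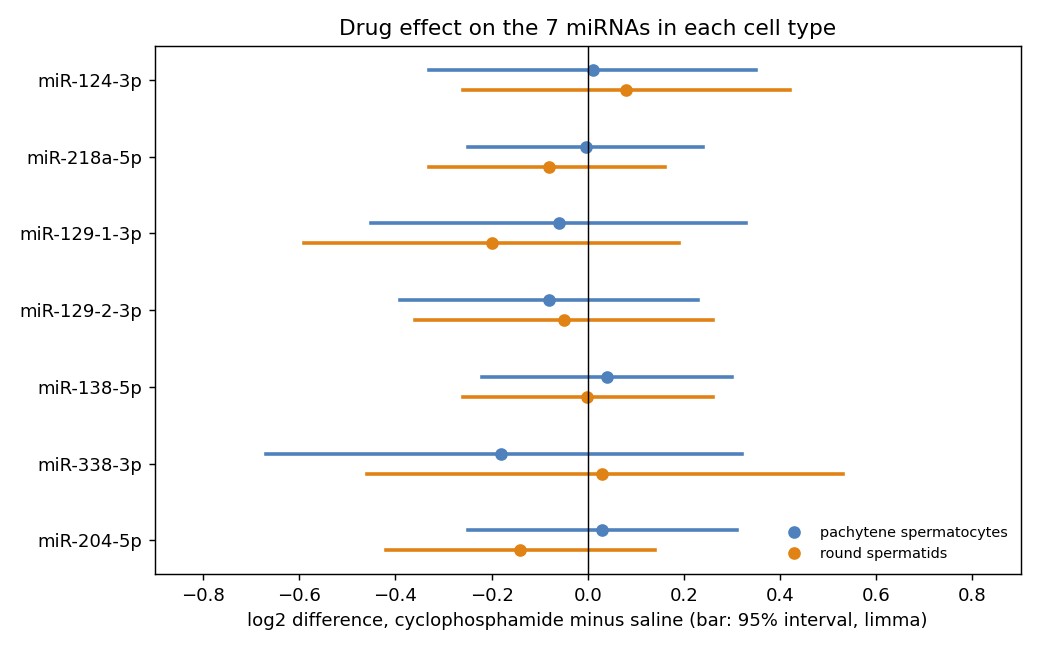
Log2 difference between cyclophosphamide and saline (x axis) for the 7 miRNAs (y axis) in pachytene spermatocytes (blue) and round spermatids (orange), with 95% intervals from limma and 5 arrays a group. All 14 intervals include 0.

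Of 11 other arms of the members' hairpins and entries related to them by name or sequence on the array, 5 were detected on no array. Detected on all 20 arrays were 2, miR-338-5p and miR-211-3p, which were tested and called in no comparison. The 5′ arm miR-338-5p lay at 3.79 ± 0.09 (SD, n = 5) and 3.84 ± 0.10 in pachytene and 3.91 ± 0.40 and 4.01 ± 0.27 in spermatid arrays, saline first. Its cell type difference was 0.11 and 0.17, with adjusted p-values of 0.572 and 0.363 by limma, beside -1.51 and -1.30 for the 3′ arm, miR-338-3p, of the same hairpin. The pachytene signals of the 5′ arm lay near the floor of 3.61, so a fall as large as that of the 3′ arm could not have been seen. The sign of the 5′ arm's value turned under 4 of 6 other scalings in saline rats and 2 of 6 in cyclophosphamide rats, and the difference between the arms was not tested. The 3′ arm miR-211-3p lay at 5.73 ± 0.30 and 6.10 ± 0.18 (SD, n = 5) in pachytene and 5.83 ± 0.98 and 6.15 ± 0.82 in spermatid arrays. Its 5′ arm, miR-211-5p, which has the seed of miR-204-5p, was detected on 8 of 20 arrays and untested, with group means of 3.61 to 3.64. Also untested were miR-138-1-3p, detected in each group on 1 to 3 arrays, miR-129-5p, detected on 2 saline and 3 cyclophosphamide pachytene arrays, and miR-204-3p, detected on 1 array. The 5 detected on no array were the other arms of miR-124 and miR-218a, miR-218b and miR-138-2-3p. In sequence miR-218b is the reverse complement, the opposite strand, of 20 bases of miR-218a-5p, and its seed differs.

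A list of 34 other miRNAs known from brain was set beside the 7. It was drawn up with earlier results of these arrays known. Of its 32 miRNAs on the array 12 were tested, and 16 were detected on no array, among them miR-137-3p and miR-153-3p of neurons and miR-410-3p and miR-433-3p of the imprinted cluster active in brain. In saline rats 4 of the 12 rose and 1 fell from pachytene spermatocytes to spermatids, with a median of 0.08 over the 12. In cyclophosphamide rats 6 rose and 1 fell, with a median of 0.42. The shares of all tested miRNAs called higher and lower, given above, are the background for these counts. The difference of drug effects between the cell types was called for 0 of the 12. The counts and medians of the 2 treatments are thus not read as a drug difference.

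The largest rise in the list was that of miR-7a-5p, a miRNA of neuroendocrine cells, by 2.97 ± 0.21 (SE) in saline and 3.41 ± 0.21 in cyclophosphamide rats, with adjusted p-values of 2.07e-09 and 3.31e-10 by limma. In saline rats miR-7b (0.56), miR-770-3p (0.57) and miR-132-3p, an activity-induced miRNA of neurons (0.33), also rose. The pachytene arrays of miR-7b and miR-132-3p lay at the floor. Both were tested only because they were detected throughout a spermatid group, where they are high, so a fall could not have been seen. Their calls are nevertheless part of the counts of rises in both treatments. In cyclophosphamide rats the same 4 rose, by 0.53 (miR-7b), 0.61 (miR-770-3p) and 0.53 (miR-132-3p) beside miR-7a-5p, together with miR-9a-3p (0.44) and miR-487b-3p (0.74). The cyclophosphamide pachytene arrays of miR-9a-3p lay at or near the floor, with a mean of 3.61. It was detected on 3 of 5 cyclophosphamide spermatid arrays, and its adjusted p was 0.0483 by limma. In saline rats miR-9a-3p was at 0.31 and miR-487b-3p at 0.09, with adjusted p-values of 0.167 and 0.834 by limma. The dendritic miR-134-5p fell by 0.62 in saline and by 0.47 in cyclophosphamide rats, and in saline rats its value turned to 0.10 under the normexp background correction. The remaining tested members did not pass the test in either treatment: miR-128-3p at -0.16 and -0.24, miR-219-5p at 0.07 and 0.05, miR-212-3p at 0.02 and 0.41, miR-125b-5p at -0.10 and -0.08, and miR-125a-5p at -0.04 and -0.22. Cyclophosphamide moved none of the 12 past the threshold in either cell type, with values from -0.35 to 0.31 in pachytene spermatocytes and from -0.18 to 0.57 in spermatids.

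The miRNAs whose signals followed each member most closely over the 20 arrays are given as a description, since the arrays of a cell type share that cell type and any pair that differs between cell types correlates. The nearest to miR-124-3p were miR-29a-3p (r = 0.96) and miR-7a-5p (r = 0.95). Within the 10 pachytene and the 10 spermatid arrays r was 0.81 and 0.85 for miR-29a-3p and -0.11 and 0.74 for miR-7a-5p. The nearest to miR-218a-5p were miR-133b-3p, a miRNA of muscle (r = 0.97), and miR-497-5p (r = 0.94). Within spermatids these were 0.65 and 0.42, and in pachytene arrays, where miR-218a-5p lay at the floor, 0.08 and 0.05.

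Among the falling members, miR-138-5p was followed most closely by miR-222-3p, known from spermatogonia (r = 0.99 over 20 arrays), and by miR-201-3p (r = 0.99). Within the 10 pachytene arrays these were 0.91 and 0.86. In spermatids miR-138-5p lay at or beside the floor, and no r is read there. The nearest to miR-204-5p were miR-34a-5p (r = 0.97) and miR-471-3p (r = 0.96), and the same pair was nearest to miR-338-3p (r = 0.94 and 0.93). Those nearest to miR-129-2-3p were miR-34a-5p (r = 0.98) and miR-107-3p (r = 0.97), and those nearest to miR-129-1-3p were miR-201-5p (r = 0.96) and miR-3585-5p (r = 0.95). Between members, the miR-129 pair correlated at 0.74 within the 10 pachytene and 0.92 within the 10 spermatid arrays. In pachytene arrays miR-129-2-3p and miR-138-5p correlated at 0.64. The rising pair, miR-124-3p and miR-218a-5p, correlated at 0.92 over all 20 arrays, and at 0.09 within the spermatid arrays.

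Markers of other cells can be set beside the 2 directions. Higher in spermatids, like miR-124-3p and miR-218a-5p, were miR-143-3p by 1.81 ± 0.23 (SE), miR-145-5p by 1.88 ± 0.32 and miR-199a-3p by 1.84 ± 0.27 of mesenchyme and muscle and miR-223-3p of myeloid cells by 2.15 ± 0.15, each in saline rats. Lower in spermatids, like the other 5, were miR-221-3p and miR-222-3p, with -1.64 ± 0.21 (SE) and -1.40 ± 0.14, and miR-202-3p of Sertoli cells, with -1.77 ± 0.18. Adjusted p-values by limma were at most 6e-05 for the first 4 and at most 2.53e-06 for the other 3. The spermatid means of miR-222-3p lay near the floor, at 3.63 and 3.65, and it was tested only through the pachytene groups. Its size and p thus depend on the floor, and under normexp it turned to 0.07 in saline rats. Over 6 other scalings there, miR-221-3p ran from -2.29 to -0.04 and miR-202-3p from -2.24 to -0.38. The first 4 kept their direction under these scalings. The lists did not move as blocks. In the list of muscle, endothelium and mesenchyme 5 of 7 tested miRNAs rose in each treatment, while miR-126a-3p of endothelium was at -0.73 in saline rats and fell by 0.83 in cyclophosphamide rats (adjusted p 0.0294), and miR-126a-5p was at -0.38 and -0.09. In the blood list 1 of 3 rose in saline and 2 of 3 in cyclophosphamide rats, and miR-150-5p of lymphocytes was at -0.25 and -0.36. Of all tested miRNAs 26.3% were called higher in saline and 30.9% in cyclophosphamide rats, shares that depend on the scaling. Nothing is read from the counts of these lists. In the spermatogonial list miR-146a-5p rose by 2.01 in saline and 1.62 in cyclophosphamide rats, against the direction of miR-221-3p and miR-222-3p, and miR-146b-5p was at 0.11 and 0.28. The pachytene arrays of miR-146a-5p lay at the floor, and it was tested only through the spermatid groups. The muscle miRNAs miR-1-3p and miR-133a-3p lay at or near the floor, with group means of 3.61 to 3.62, and so did miR-451-5p of red cells. Whether any of these cells contributed to the signals of the 7 miRNAs was not tested.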

How the data were processed

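Per the file headers and the submitters' notes, the authors' Agilent Feature Extraction 11.5.1.1 files give spot intensity values with background removed and no scaling across arrays. The authors also deposited a table of log2 values, centred for each miRNA by steps not given in the sources used here, and it served as an alternative only. Signals of cyclophosphamide round spermatid rat 14 were deposited rounded to 3 digits.

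The arrays were scaled to their 75th percentiles, taken over 2176 spots that passed the background call on every array, and log2 was taken above a floor of 12.17 (log2 3.61). Outlier spots (379 to 635 an array) and controls were dropped, a probe's spots were averaged, and a miRNA took its brightest probe. The share of spots well above background was 18.9% to 31.4%, and precision is limited by the number of arrays. A miRNA detected throughout 1 group or more was tested (217), and 460 were untested. A single limma 3.58.1 model in R 4.3.3, with 4 group means and 16 residual degrees of freedom, was used after a test on simulated data, with Benjamini-Hochberg adjustment over 217 and a threshold of 0.05. P-values measure the spread between arrays, as far as rat numbers mark separate animals. The 2 cyclophosphamide pachytene arrays numbered 16 were taken as 2 rats because their years differ, an assumption that the labels do not settle.

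The members, lists and tests were chosen with earlier results of these data known. Named miRNAs are the 7, the tested miRNAs of the hairpin and brain lists, and for each member the 2 other tested miRNAs with the highest r. Marker miRNAs and undetected brain miRNAs were singled out after their values were seen. RefSeq sequences matched 6 of the 7 by name. The alternatives were other scalings, background correction, floors, filters and probes, slide and replicate blocks, and leaving out arrays.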

Additional observations from a re-analysis of the deposited data

Results flagged for a closer look

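An array stood apart from the other 4 of its group in 6 of 28 combinations of a member and a group, by the gap to its neighbour over the range of the group. Chance gives about 1 in 20 for values that vary freely. That rate does not apply to the 3 cases below in which the other 4 arrays were held at the floor, where any array above it stands apart. Cyclophosphamide spermatid rat 26 stood apart for miR-129-2-3p, at 4.58 against 3.85 to 3.96 in the others, and for miR-138-5p, at 3.67 against 4 arrays at the floor of 3.61. For miR-338-3p saline pachytene rat 16 lay at 4.74 against 5.60 to 5.85, and saline spermatid rat 17 at 4.72 against 3.67 to 3.92. For miR-218a-5p saline pachytene rat 13 lay at 3.65 and cyclophosphamide pachytene rat 7 at 3.63, each against 4 arrays at the floor of 3.61.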

How the results depend on the processing

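Drug calls among the 7 stayed at 0 in pachytene spermatocytes under 38 alternatives, with adjusted p-values from 0.405 to 1 in limma. In spermatids and for the difference of effects, the alternative with calls was the fit within slide 2, with 1 spermatid array a treatment. It called 2 members in spermatids (miR-124-3p at 0.65 and miR-218a-5p at 0.28, which turned its sign) and 1 for the difference of effects (miR-218a-5p at 0.28, turned too), and 27 and 20 of the tested miRNAs. Uncalled drug values took the other sign in 35, 46 and 38 of 262, 269 and 255 member values, in the order of the 3 comparisons.

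The cell type differences kept their direction under all alternatives except normexp, where miR-129-1-3p and miR-338-3p came to 0.01 in saline rats, with miR-129-2-3p at -0.0021 and miR-138-5p at -0.0043. In cyclophosphamide rats normexp gave 0.31 for miR-124-3p, 0.26 for miR-218a-5p and -0.76 to -0.45 for the other 5. Normexp was run on median signals, because the files hold no mean signals, and like the scaling to control spots it was chosen after seeing the data. It adds an offset of 50. The deposited value table gave the largest sizes, -6.28 in saline and -6.13 in cyclophosphamide rats for miR-138-5p and 3.90 and 4.99 for miR-218a-5p. Leaving out 1 array at a time, miR-124-3p stayed between 1.34 and 1.59 in saline rats and miR-138-5p between -1.72 and -1.58. Over all 217, the 105 calls in saline rats became 29 with normexp and 56 within slide 1, and the 117 in cyclophosphamide rats became 72 with no scaling, 38 with normexp and 73 within slide 1. The median cell type difference of all miRNAs moved more in saline than in cyclophosphamide rats, to -0.37 with no scaling, -0.15 over all rat spots, -0.12 with control spots and 0.44 with normexp. Normexp also moved the medians of the drug comparisons, to 0.34 in pachytene spermatocytes, -0.16 in spermatids and -0.49 for the difference of effects.

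Arrays of the 2 cell types with equal rat numbers were compared for cyclophosphamide rat 15 and saline rats 16, 25 and 28. Their deviations from the group means correlated at 0.13, 0.07, 0.18 and -0.30, and none was nearest to its own number. The saline numbers lay on different slides in the 2 cell types, so this cannot show whether equal numbers mark the same rat. Cyclophosphamide number 16, with 2 pachytene arrays, was not paired here or in the replicate block. The fit with a replicate block (correlation 0.098) called 0 of 7 in each drug comparison. Signals near the floor limit miR-124-3p and miR-218a-5p in pachytene arrays and miR-138-5p, miR-129-2-3p and miR-338-3p in spermatid arrays.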
